A study of Mus musculus with 16 samples.

Results

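The genes described here are 10 muscle chaperones and partners. They are the small heat shock proteins *Cryab*, *Hspb1*, *Hspb2*, *Hspb3*, *Hspb6*, *Hspb7* and *Hspb8*, the myosin chaperone *Unc45b* and the histone methyltransferase *Smyd1*. The last is *Hsp90aa1*, which encodes the stress-inducible cytosolic HSP90. All were chosen by name, with earlier results of these data known, so their counts beside those of all genes are a description. Their Ensembl identifiers gave 10 of the 49585 rows that each of 2 gene count tables holds. RNA-seq was done on 16 libraries of C2C12 cells, a mouse myoblast line that withdraws from the cell cycle and fuses into myotubes in low-serum medium. The first table compared wild-type (WT) cells with AMPK-KO cells. In the latter both catalytic subunit genes of the AMP-activated protein kinase, *Prkaa1* and *Prkaa2*, had been disrupted with CRISPR-Cas9. Cells were taken as myoblasts (d0) and after 8 days in differentiation medium (d8), which the study names the myotube stage. Each of the 4 groups had 2 libraries. The second table, all at d0, held AMPK-null cells. A FLAG-BirA tag and the EGFP coding sequence had been knocked into their endogenous *Tet2* gene. The serine that AMPK phosphorylates was left as it was (TET2-WT) or changed to glutamate, which mimics the phosphorylation (TET2-S97E). There were 2 clones of each and 2 libraries of each clone. TET2 oxidizes methylated cytosine in DNA. Library totals ran from 17883417 to 24663079 counts in the first table and from 19801909 to 37790358 in the second. No library of the second table came from cells with intact AMPK, and the labels do not say which knockout line gave each AMPK-KO library of the first table. The study describes its RNA-seq tracks as drawn from independent AMPK-KO lines, without tying lines to libraries, so that a difference between lines and one between replicates cannot be told apart. Nothing in the labels states that replicates were separate cultures, so the p-values measure the spread between these libraries, which may be technical.

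Small heat shock proteins bind unfolding proteins and hold them until ATP-driven chaperones refold them or autophagy removes them. In muscle they sit on desmin, actin and filamin: CRYAB (αB-crystallin) and HSPB1 protect filaments, HSPB2 and HSPB3 form a muscle complex of their own, HSPB6 (HSP20) binds actin-associated proteins, HSPB7 binds filamin C, and HSPB8 joins the co-chaperone BAG3 in chaperone-assisted autophagy of damaged sarcomere proteins. UNC45B and HSP90 fold the motor domain of myosin, and SMYD1 acts with them during sarcomere assembly.

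The edited genes were examined first. *Prkaa2* stood at 1.69 and 1.79 CPM in the WT d0 libraries and 0.209 and 0.421 CPM in the AMPK-KO d0 libraries, CPM being counts per gene scaled to a common library size, and at 6.22 and 10.1 CPM in WT d8 and 1.26 and 0.826 CPM in AMPK-KO d8. *Prkaa1* stood at 159 and 159 CPM in WT d0 and 79.7 and 78.0 CPM in AMPK-KO d0, and at 126 and 125 CPM in WT d8 and 83.3 and 82.5 CPM in AMPK-KO d8. Both transcripts were lower in every AMPK-KO library than in the WT libraries of that day, and *Prkaa1* RNA was still present. By edgeR's test with Benjamini-Hochberg adjustment over all genes, *Prkaa1* was called lower at d0 (log2 fold change -1.01 ± 0.13 with its standard error (SE), adjusted p = 0.0116) and d8 (-0.60 ± 0.13, adjusted p = 0.0419), and *Prkaa2* at d8 (-2.96 ± 0.47, adjusted p = 0.0190) but not at d0 (-2.43 ± 0.51, adjusted p = 0.0527). In the second table *Prkaa2* was between 0.453 and 1.73 CPM in all 8 libraries, and *Tet2*, the edited gene there, stood at 34.4 and 22.6 CPM in TET2-WT clone 1, 58.4 and 56.2 in TET2-WT clone 2, 12.9 and 21.9 in TET2-S97E clone 1 and 7.89 and 22.1 in TET2-S97E clone 2 (-1.29 ± 0.38 for TET2-S97E against TET2-WT, adjusted p = 0.366 by edgeR). All 4 TET2-S97E libraries were below all 4 TET2-WT libraries in *Tet2*, and DESeq2 called it lower (adjusted p = 0.0464). Counts do not show the S97E change itself.

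The labelled stages were checked with markers of myotubes. The summed level of 12 myotube markers was 224 and 159.7 CPM in the WT d0 libraries, 21.9 and 18.3 CPM in AMPK-KO d0, 5957 and 9286 CPM in WT d8, and 1752 and 10344 CPM in AMPK-KO d8. *Acta1*, skeletal actin, was the most abundant of them in 6 of these 8 libraries. The AMPK-KO d8 libraries were far apart, with replicate 1 below both WT d8 libraries and replicate 2 above both. The study reports that its AMPK-KO cells failed to form myotubes, judged by cell shape and myosin heavy chain protein. The values here are RNA, and the difference between the 2 measures was not tested. Among the markers, *Myh8* and *Actn2* had 0 counts in both AMPK-KO d0 libraries, *Ckm* and *Mef2c* also had 0 counts in replicate 2, and every marker had counts above 0 in the other 6. At d0, 3 of the 12 were called lower in AMPK-KO cells: *Myog*, the myogenin gene (-5.36 ± 0.68, adjusted p = 0.0116), *Mymk* (-5.64 ± 1.01, adjusted p = 0.0331) and *Mymx* (-3.99 ± 0.79, adjusted p = 0.0447), the last 2 being genes for membrane fusion. With the replicate number as a block 5 were called lower, and 6 by DESeq2. Of all genes, 2.83% were called lower by edgeR, 3.96% with the block and 6.83% by DESeq2. Of 7 myoblast markers, *Pax7*, of muscle stem cells, and *Myod1*, a master regulator of muscle fate, were called lower in AMPK-KO at d0 (-8.13 ± 0.87, adjusted p = 0.00863 and -3.29 ± 0.45, adjusted p = 0.0147). These are 2 of 7 beside the 2.83% of all genes called lower by edgeR. The part of these marker differences in the chaperone values between genotypes was not tested. In bulk RNA, a smaller share of cells of a type and less RNA per cell cannot be told apart.

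RefSeq promoter windows (build GRCm38.p6) were at hand for 7 of the 10 genes, *Hspb1*, *Hspb3*, *Hspb6* with 2 windows, *Hspb7*, *Hspb8*, *Unc45b* and *Smyd1*. The 250 bases before each start were searched on both strands for the heat shock element GAANNTTC, the E-box CANNTG that myogenic factors bind, its form CAGCTG, the MCAT element CATTCC, the MEF2 site and the CArG box. CAGCTG is also a match to CANNTG. Windows of *Hspb1*, *Hspb3*, *Hspb7* and *Unc45b* are shown because *Unc45b*, *Hspb7* and *Hspb3* rose most in differentiation of WT cells and *Hspb1* had the largest difference between genotypes among those called. They lie at chr5:135887669-135887918 on the plus strand, chr13:113663677-113663926 on the minus strand, chr4:141420529-141420778 on the plus strand and chr11:82911003-82911252 on the plus strand. For *Hspb1* and *Hspb3* the capitals mark heat shock elements, the MCAT element and the MEF2 site but not E-boxes, and for *Hspb7* and *Unc45b*, which had no other match, they mark E-boxes:
Hspb1: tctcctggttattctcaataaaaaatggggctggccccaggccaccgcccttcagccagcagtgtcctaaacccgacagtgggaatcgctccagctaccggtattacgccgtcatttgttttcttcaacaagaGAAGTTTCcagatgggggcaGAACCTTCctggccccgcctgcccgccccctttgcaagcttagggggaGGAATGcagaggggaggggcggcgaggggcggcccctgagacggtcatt
Hspb3: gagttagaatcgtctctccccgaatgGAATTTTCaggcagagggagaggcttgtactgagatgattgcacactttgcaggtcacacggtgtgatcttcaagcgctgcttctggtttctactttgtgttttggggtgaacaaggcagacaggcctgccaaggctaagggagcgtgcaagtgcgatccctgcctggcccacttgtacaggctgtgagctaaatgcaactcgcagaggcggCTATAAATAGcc
Hspb7: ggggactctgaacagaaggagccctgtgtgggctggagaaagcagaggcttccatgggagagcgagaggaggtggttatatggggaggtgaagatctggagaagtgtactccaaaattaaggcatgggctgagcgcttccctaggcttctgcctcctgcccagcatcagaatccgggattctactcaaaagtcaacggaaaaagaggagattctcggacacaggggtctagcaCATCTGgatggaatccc
Unc45b: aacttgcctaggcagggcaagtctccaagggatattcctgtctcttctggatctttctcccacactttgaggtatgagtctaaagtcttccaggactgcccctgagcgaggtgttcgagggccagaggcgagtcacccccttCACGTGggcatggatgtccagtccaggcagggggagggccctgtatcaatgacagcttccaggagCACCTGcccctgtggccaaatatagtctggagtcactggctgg

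The *Hspb1* window held 2 heat shock elements, the nearer with its first base at position -97, where -1 is the base before the start, and 1 MCAT element at position -49. *Hspb3* had 1 heat shock element at position -224 and 1 MEF2 site at position -12. Of the *Hspb6* windows, the one at chr7:30553051-30553300 held 1 heat shock element at position -120 and the other held no match to any of the motifs. E-boxes numbered 2 each in the windows of *Hspb1*, *Hspb3* and *Unc45b* and 1 each in those of *Hspb7* and *Hspb8*. The *Smyd1* window (chr6:71262282-71262531, minus strand) held none of these letters. Of all 32851 windows of the same length in the table, 6.69% held a heat shock element, 66.2% an E-box, 13.0% the form CAGCTG, 12.6% an MCAT element, 2.92% a MEF2 site and 1.47% a CArG box. A match describes the sequence only.

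The 10 genes spanned a wide range of levels. Ranked by TPM (counts scaled by exon length and then to a common total), *Hspb1* led in WT d0 with a mean of 3161 TPM, followed by *Hsp90aa1* (1633 TPM), *Cryab* (572 TPM), *Hspb8* (160.4 TPM), *Hspb6* (38.3 TPM), *Hspb2* (21.03 TPM) and *Smyd1* (9.17 TPM). *Hspb7* (0.804 TPM) and *Unc45b* (0.691 TPM) were low and overlapped between libraries, and *Hspb3* had 0 counts in both, below the floor of 3 counts under which a gene is treated here as not detected. In WT d8 the order was *Hspb1* (2306 TPM), *Cryab* (1137 TPM), *Hsp90aa1* (949 TPM), *Hspb8* (277 TPM) and *Hspb2* (112 TPM), then *Hspb7*, *Smyd1* and *Unc45b*, which lay between 51.5 and 61.5 TPM with overlap between neighbours, and last *Hspb6* (19.2 TPM) and *Hspb3* (11.0 TPM). In AMPK-KO cells *Hsp90aa1* led on both days, with 1882 TPM at d0 and 1824 TPM at d8, ahead of *Hspb1* with 429 and 908 TPM, and at d8 the libraries of *Hspb1* overlapped those of *Cryab* (852 TPM).

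**Figure D1:**
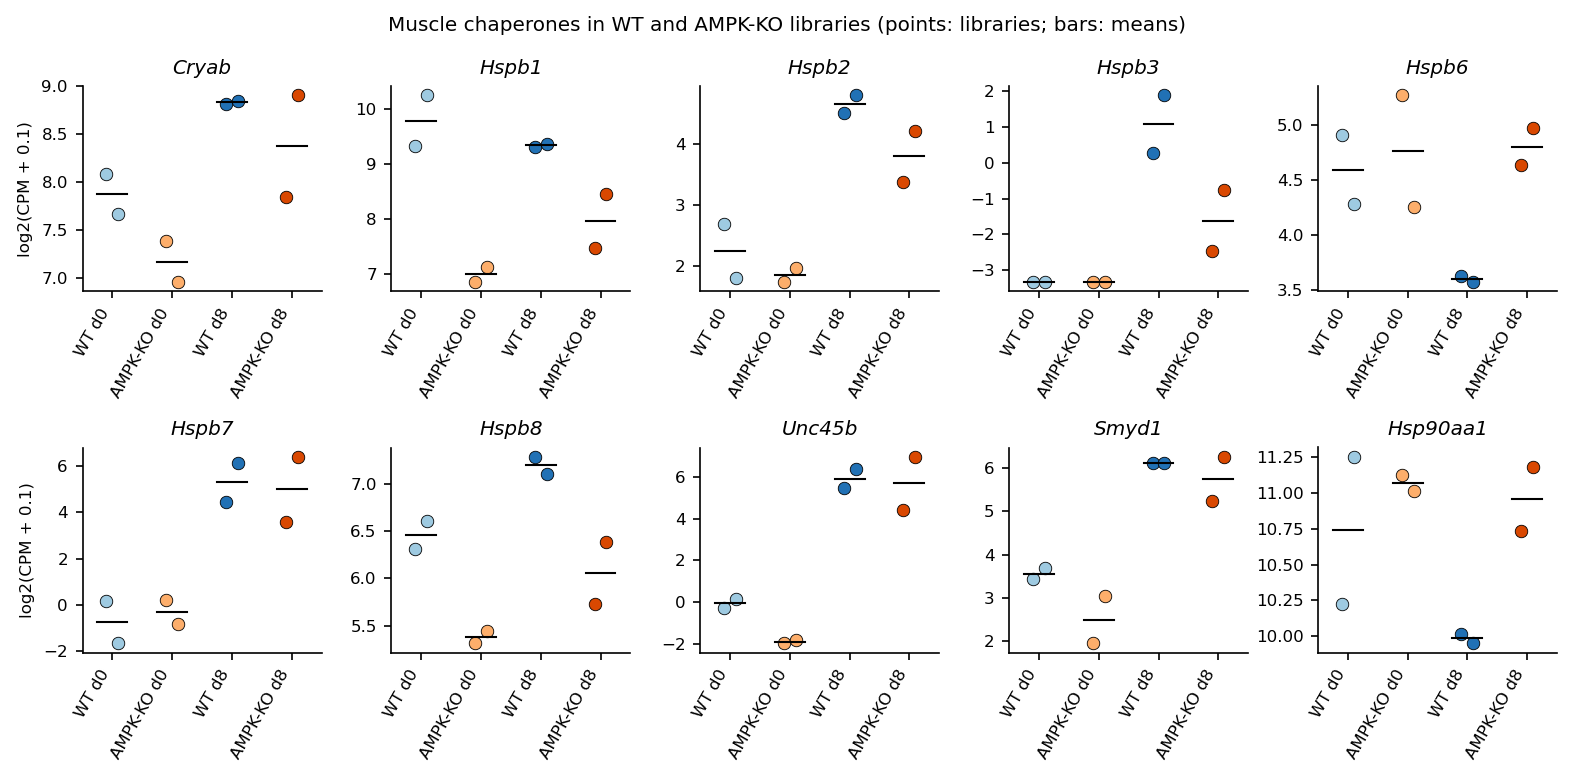
Level of each of the 10 genes in the 8 libraries of the WT and AMPK-KO table, as log2(CPM + 0.1) on the y axis, with 1 point per library, a bar at the mean of the plotted values and a separate y range for each gene. *Unc45b*, *Smyd1*, *Hspb7* and *Hspb2* lie higher at d8 in both genotypes, whereas *Hspb1* and *Hspb8* lie lower in AMPK-KO than in WT on both days.

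The first question was which of these genes change while WT myoblasts become myotubes. *Unc45b*, *Hspb7*, *Smyd1*, *Hspb2* and *Hspb3* rose. *Unc45b*, which chaperones the myosin head, stood at 0.723 and 1.03 CPM in the WT d0 libraries and at 43.1 and 82.4 CPM in WT d8, a log2 fold change of 6.16 ± 0.93 (SE) with an edgeR adjusted p of 0.0146. *Hspb7*, the filamin C binder, went from 1.01 and 0.217 CPM to 21.8 and 70.8 CPM (6.19 ± 1.25, adjusted p = 0.0259). Both genes were low in myoblasts and spread between the d8 libraries, replicate 2 being the higher for both.

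*Smyd1* rose from 10.8 and 12.7 CPM to 68.8 and 68.5 CPM (2.55 ± 0.44, adjusted p = 0.0171), with the libraries of a day close to each other. *Hspb2* rose from 6.37 and 3.42 CPM to 22.8 and 27.9 CPM (2.37 ± 0.41, adjusted p = 0.0170). *Hspb3*, the partner of HSPB2, had 0 counts in both WT d0 libraries and 20 and 76 counts in WT d8, which is at least 15.2-fold higher with each d0 library set at 3 counts (adjusted p = 0.0425). All 5 genes were higher in every WT d8 library than in every WT d0 library, as were *Cryab* and *Hspb8*, which makes 7 of the 10 beside 31.3% of all genes tested. Among the 14329 genes tested, 5.78% were called higher and 6.58% lower at an adjusted p under 0.05, and the median log2 fold change was 1.66 over the 10 genes and 0.01 over all genes tested.

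The other 5 genes did not pass the test in WT. *Cryab*, a desmin chaperone, stood at 271 and 203 CPM in d0 and 452 and 461 CPM in d8 (0.95 ± 0.35, adjusted p = 0.120), and *Hspb8* at 79.2 and 97.05 CPM in d0 and 156 and 137 CPM in d8 (0.73 ± 0.23, adjusted p = 0.0824). In both the groups did not overlap, and the DESeq2 test called both higher (adjusted p = 0.0415 and 0.0461), which makes 7 of the 10, beside 9.29% of its genes. *Hsp90aa1* stood at 1198 and 2443 CPM in d0 and 1036 and 988 CPM in d8 (-0.85 ± 0.34, adjusted p = 0.144), and *Hspb6* at 29.9 and 19.4 CPM in d0 and 12.2 and 11.8 CPM in d8 (-1.04 ± 0.37, adjusted p = 0.110), both with d8 below d0 in every library, as in 30.2% of all genes tested. *Hspb1* overlapped between the days, with 639 and 1208 CPM in d0 and 633 and 657 CPM in d8 (-0.52 ± 0.39, adjusted p = 0.407).

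Which libraries were in the fit changed the calls, over these genes and over the whole table. Without WT d0 replicate 1, *Unc45b*, *Hspb7*, *Smyd1* and *Hspb2* were still called, and *Hsp90aa1* was called lower (-1.29, adjusted p = 0.0227). Without WT d0 replicate 2, WT d8 replicate 1 or WT d8 replicate 2, none of the 10 genes was called, and 0, 2 and 0 genes of the whole table were. The adjusted p then ran from 0.0723 to 0.115 for *Unc45b* and the log2 fold change from 5.59 to 6.53, and *Hspb7*, *Smyd1* and *Hspb2* were lost in the same fits with adjusted p up to 0.147, 0.118 and 0.121. The call of *Hspb3* was kept only without either AMPK-KO d8 library, and its adjusted p elsewhere was between 0.0552 and 0.197. The log2 fold change of *Hspb7* was 7.68 without WT d0 replicate 1 and 5.08 without WT d8 replicate 2.

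In AMPK-KO cells *Unc45b*, *Smyd1*, *Hspb7* and *Hspb2* were called higher at d8, against 4.81% of all genes called higher and 4.95% called lower. *Unc45b* had 3 and 4 counts in the AMPK-KO d0 libraries, or 0.157 and 0.187 CPM, and 21.3 and 123 CPM in AMPK-KO d8 (8.66 ± 1.11, adjusted p = 0.0207). From the summed counts of the 2 libraries, 3054 at d8 and 7 at d0, the ratio was 391.8 with an exact 95% interval of 189.9 to 975.2, which covers counting error only. *Smyd1* went from 3.77 and 8.18 CPM to 37.7 and 76.2 CPM (3.25 ± 0.46, adjusted p = 0.0215).

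*Hspb7* went from 1.05 and 0.468 CPM to 11.9 and 84.2 CPM (5.99 ± 1.23, adjusted p = 0.0321), and *Hspb2* from 3.25 and 3.83 CPM to 10.3 and 18.6 CPM (2.03 ± 0.41, adjusted p = 0.0307). In each of the 4 genes AMPK-KO d8 replicate 2 was well above replicate 1, the order also seen in the summed myotube markers, whose part in these values was not tested. *Hspb3* had 0 counts in both AMPK-KO d0 libraries and 2 and 10 counts in AMPK-KO d8 (adjusted p = 0.166), so that 1 of the d8 libraries was at or under the floor. *Cryab* stood at 166 and 124 CPM in d0 and 229.7 and 479.9 CPM in d8 (1.29 ± 0.35, adjusted p = 0.0636), and *Hspb1* at 116 and 140.2 CPM in d0 and 178 and 349 CPM in d8 (1.04 ± 0.39, adjusted p = 0.136). DESeq2 called both higher (adjusted p = 0.00346 and 0.0406), which makes 6 of the 10, beside 9.24% of its genes. *Hspb8* (0.72 ± 0.23, adjusted p = 0.0994), *Hspb6* (-0.04 ± 0.36) and *Hsp90aa1* (-0.09 ± 0.34) were not called by either test.

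Without AMPK-KO d0 replicate 1 or 2, the calls in AMPK-KO cells were lost among the 10 genes, as nearly all were over the whole table. In these fits the log2 fold change was 8.53 and 8.80 for *Unc45b* and 2.78 and 3.93 for *Smyd1*. Without AMPK-KO d8 replicate 2 it was 6.87 for *Unc45b*, 2.63 for *Smyd1*, 3.95 for *Hspb7* and 1.52 for *Hspb2*. *Hspb7* and *Hspb2* then missed the threshold. Without AMPK-KO d8 replicate 1 the log2 fold change of *Unc45b* was 9.43. *Hspb7* and *Hspb2* also missed the threshold without WT d8 replicate 1 or WT d8 replicate 2, which share only the estimate of the spread.

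**Figure D2:**
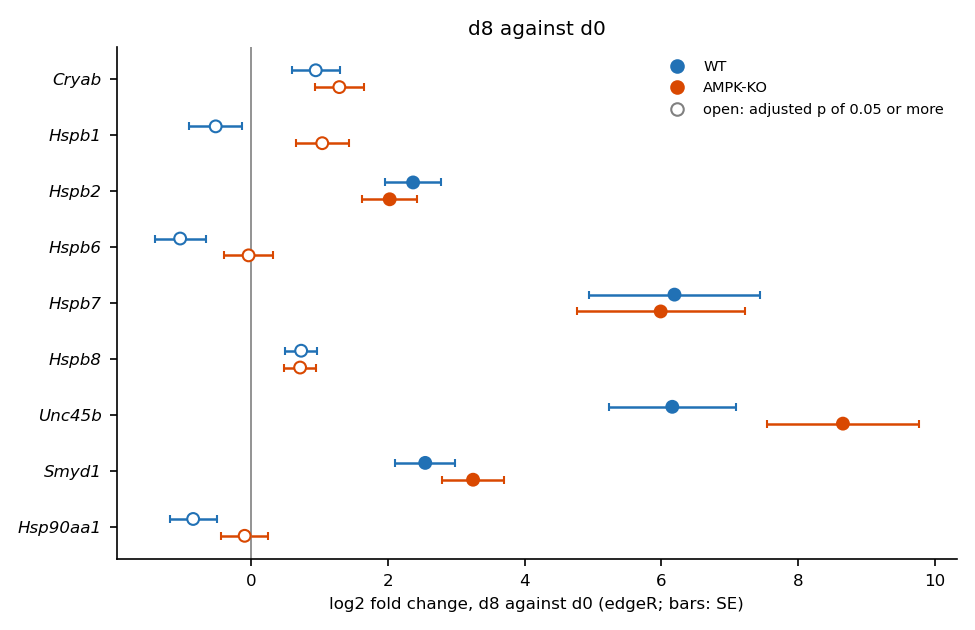
Log2 fold change of d8 against d0 on the x axis for 9 of the genes, in WT (blue) and AMPK-KO (orange) cells, with SE bars and filled points where the edgeR adjusted p was under 0.05. *Hspb3* is left out because its d0 libraries had 0 counts. *Unc45b*, *Hspb7*, *Smyd1* and *Hspb2* lie furthest to the right in both genotypes.

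Whether the change from d0 to d8 differed between the genotypes was tested by an interaction term. No gene of the 14329 was called (0%) by edgeR, 729 had an unadjusted p under 0.05, and DESeq2 called 54. None of the 10 genes was called by either. *Hspb1* had the lowest unadjusted p of the 10, with a difference of 1.56 ± 0.55 on the log2 scale (adjusted p = 0.943 by edgeR), and *Unc45b* had a difference of 2.496 ± 1.45 (adjusted p = 1.000). The difference was -0.02 ± 0.33 for *Hspb8*. Permuting 2 libraries against 2 gives an exact two-sided p of 0.33 at the least, so only the fit over all genes was used.

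The second question was how loss of AMPK bears on these genes in myoblasts. *Hspb1* fell. It stood at 639 and 1208 CPM in the WT d0 libraries and at 116 and 140.2 CPM in AMPK-KO d0, a log2 fold change of -2.85 ± 0.41 or 7.21-fold lower (adjusted p = 0.0173). It was 1 of the 10 genes called lower, against 2.83% of all genes called lower and 0.698% called higher. *Hspb8*, the BAG3 partner, stood at 79.2 and 97.05 CPM in WT and 39.7 and 43.4 CPM in AMPK-KO, without overlap (-1.08 ± 0.24, adjusted p = 0.0573). With the replicate number as a block, *Hspb8* was also called lower (adjusted p = 0.0416), where 3.96% of all genes were called lower, and DESeq2 called it lower as well (adjusted p = 0.00316), beside 6.83% of its genes.

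Without AMPK-KO d0 replicate 1 or 2, *Hspb1* had log2 fold changes of -2.73 and -3.01. Its call was lost in both fits, as were most calls over all genes. In all, 5 of the 10 genes were lower in both AMPK-KO d0 libraries than in both WT d0 libraries, which was so for 25.7% of all genes tested. Besides *Hspb1* and *Hspb8* these were *Cryab*, *Smyd1* and *Unc45b*, none of them called. *Cryab* stood at 271 and 203 CPM in WT and 166 and 124 CPM in AMPK-KO (-0.71 ± 0.35, adjusted p = 0.307). *Smyd1* stood at 10.8 and 12.7 CPM in WT and 3.77 and 8.18 CPM in AMPK-KO (-0.97 ± 0.43, adjusted p = 0.259). *Unc45b* had 3 and 4 counts in the AMPK-KO libraries against 15 and 19 in WT (-2.30 ± 1.26, adjusted p = 0.360), and the ratio of the summed counts, scaled to depth, was 0.199 with a 95% counting interval of 0.0745 to 0.456. *Hspb2* (-0.47 ± 0.40), *Hspb6* (0.22 ± 0.36), *Hspb7* (0.25 ± 1.32) and *Hsp90aa1* (0.24 ± 0.34) overlapped between the genotypes. The WT d0 libraries were themselves apart in *Hspb1* and *Hsp90aa1*, replicate 2 having a level well above that of replicate 1.

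**Figure D3:**
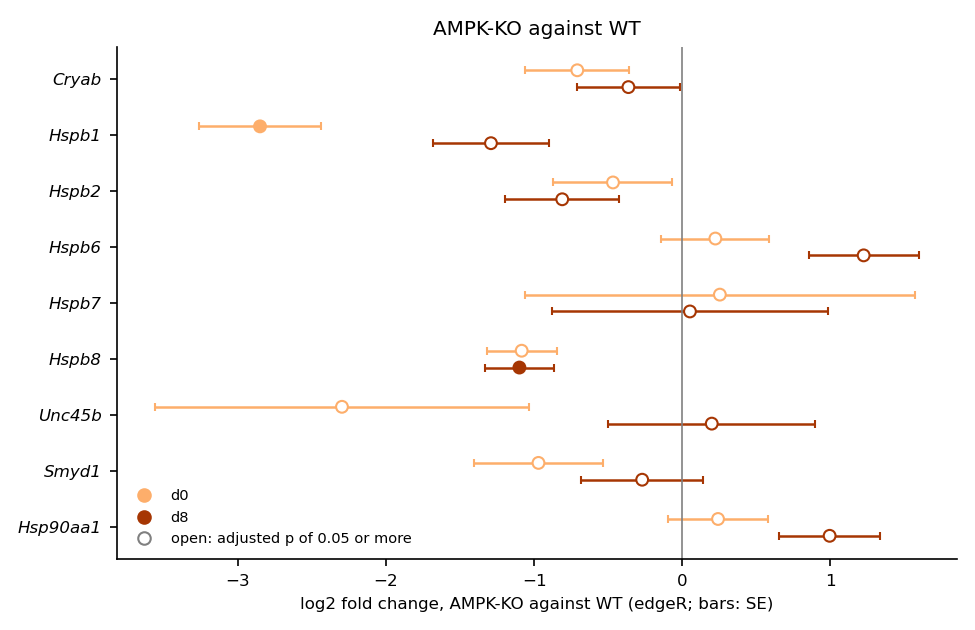
Log2 fold change of AMPK-KO against WT on the x axis for 9 of the genes at d0 (light) and d8 (dark), with SE bars and filled points where the edgeR adjusted p was under 0.05. *Hspb3* is left out because its d0 libraries had 0 counts. *Hspb1* at d0 and *Hspb8* at d8 are the filled points, and both genes lie left of 0 on both days.

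At d8, *Hspb8* was lower in AMPK-KO cells than in WT cells. It stood at 156 and 137 CPM in WT and 53.2 and 83.6 CPM in AMPK-KO (-1.10 ± 0.23, 2.14-fold lower, adjusted p = 0.0436). It was 1 of the 10 genes called lower, against 3.98% of all genes called lower and 1.36% called higher. *Hspb1* stood at 633 and 657 CPM in WT and 178 and 349 CPM in AMPK-KO (-1.29 ± 0.39, adjusted p = 0.110), and with the replicate block it was called lower beside *Hspb8* (adjusted p = 0.0362 and 0.0298), where 5.69% of all genes were called lower. Both genes, with *Hspb2* and *Hspb3*, were lower in each AMPK-KO d8 library than in each WT d8 library, which makes 4 of the 10 beside 27.9% of all genes tested.

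The call of *Hspb8* at d8 was kept without WT d0 replicate 2 or AMPK-KO d8 replicate 2 and lost without any other library. Its log2 fold change ran from -1.50 without AMPK-KO d8 replicate 2 to -0.79 without AMPK-KO d8 replicate 1. Most calls over all genes were also lost without either WT d8 replicate or AMPK-KO d8 replicate 1. In the fit to the d8 libraries alone *Hspb8* was not called (-1.13, adjusted p = 0.0827). A pair of genes, *Hsp90aa1* and *Hspb6*, were higher in each AMPK-KO d8 library, beside 30% of all genes tested, without passing the edgeR test. *Hsp90aa1* stood at 1036 and 988 CPM in WT and 1702 and 2330.2 CPM in AMPK-KO (0.99 ± 0.34, adjusted p = 0.146). *Hspb6* stood at 12.2 and 11.8 CPM in WT and 24.7 and 31.4 CPM in AMPK-KO (1.22 ± 0.37, adjusted p = 0.110). DESeq2 called both higher (adjusted p = 0.0444 and 0.0273), where it called 3.34% of its genes higher, and edgeR on the d8 libraries alone called *Hspb6* higher (1.197, adjusted p = 0.0481).

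The muscle-restricted HSPB2 and HSPB3 genes were lower in both AMPK-KO d8 libraries and were not called. *Hspb2* stood at 22.8 and 27.9 CPM in WT and 10.3 and 18.6 CPM in AMPK-KO (-0.81 ± 0.39, adjusted p = 0.264). *Hspb3* had 2 and 10 counts in AMPK-KO against 20 and 76 in WT (-3.06 ± 1.04, adjusted p = 0.174). *Cryab* (-0.36 ± 0.35), *Smyd1* (-0.27 ± 0.41), *Hspb7* (0.05 ± 0.93) and *Unc45b* (0.20 ± 0.70) overlapped between the genotypes at d8, since AMPK-KO d8 replicate 1 lay below both WT d8 libraries and replicate 2 above both in each of the 4 genes. The sign for *Hspb7* and *Unc45b* was negative with the replicate block (-0.10 and -0.14).

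The other chaperone families were counted from lists drawn up by family. Between the genotypes, 20.9% of all genes at d0 and 22.8% at d8 had an unadjusted p under 0.05, and counts of such genes in a list are to be read against these shares. Of 10 chaperonin genes, none was called higher and 2 were called lower from d0 to d8 in each genotype, beside 6.58% of all genes called lower in WT and 4.95% in AMPK-KO: *Hspd1* and *Hspe1*, the mitochondrial HSP60 and its co-chaperonin (-1.31 ± 0.31, adjusted p = 0.0368 and -1.03 ± 0.25, adjusted p = 0.0424 in WT, -1.45 ± 0.31, adjusted p = 0.0340 and -1.17 ± 0.25, adjusted p = 0.0355 in AMPK-KO). DESeq2 called 4 lower in WT and 5 in AMPK-KO, beside 8.84% and 7.99% of its genes. The median over the 10 was -0.74 in WT and -0.73 in AMPK-KO. Between the genotypes all 10 had positive values on both days (median 0.42 at d0 and 0.30 at d8) and none was called by edgeR, with 4 and 2 at an unadjusted p under 0.05 and 1 and 0 called by DESeq2. DESeq2 called 342 of its 14385 genes higher at d0 and 3.34% at d8. Of 16 HSP40 genes, 3 were called higher and none lower in each genotype, beside the 5.78% of all genes called higher from d0 to d8 in WT and 4.81% in AMPK-KO. *Dnajb5* led in both (1.70 ± 0.20, adjusted p = 0.0143 in WT and 1.87 ± 0.20, adjusted p = 0.0179 in AMPK-KO), followed by *Dnajb9*, an HSP40 of the endoplasmic reticulum (1.16 ± 0.22, adjusted p = 0.0210 and 1.13 ± 0.22, adjusted p = 0.0283). The third was *Dnaja4* in WT (1.33 ± 0.34, adjusted p = 0.0459) and *Dnajb2* in AMPK-KO (0.74 ± 0.18, adjusted p = 0.0491).

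*Dnajb5* was also the HSP40 gene called lower in AMPK-KO cells at d0 (-1.10 ± 0.20, adjusted p = 0.0348) and at d8 (-0.94 ± 0.20, adjusted p = 0.0407). Its level was 15.1 and 15.1 CPM in WT d0, 6.65 and 7.43 CPM in AMPK-KO d0, 55.3 and 43.2 CPM in WT d8 and 24.3 and 27.1 CPM in AMPK-KO d8, so that no library of AMPK-KO reached its WT counterparts of that day. Of 15 HSP70 genes, 1 was called from d0 to d8 in each genotype, *Hspa14* (-0.80 ± 0.20, adjusted p = 0.0460 in WT and -0.81 ± 0.20, adjusted p = 0.0498 in AMPK-KO, lost there with the replicate block). Between the genotypes edgeR and DESeq2 called none of the 15, and 1 at d0 and 2 at d8 had an unadjusted p under 0.05. With the replicate block 1 was called higher at d8, beside 329 of all 14329 genes tested. Of 16 other HSP90 paralogs and co-chaperones, *Unc45a*, the general form of the myosin chaperone, was called lower from d0 to d8 in WT (-0.78 ± 0.19, adjusted p = 0.0392), and edgeR and DESeq2 made no other call between days or genotypes, with 2 of 16 at d0 and 4 at d8 at an unadjusted p under 0.05 between genotypes. The median over the list between AMPK-KO and WT was 0.19 at d0 and 0.29 at d8, where 15 of 16 had a positive log2 fold change.

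Among 9 genes of chaperone-assisted autophagy and BAG partners, *Synpo2*, which links BAG3 to autophagosome formation, was called higher from d0 to d8 in WT (2.76 ± 0.45, adjusted p = 0.0156) and AMPK-KO (1.93 ± 0.43, adjusted p = 0.0391). At d8, *Stub1*, the ubiquitin ligase CHIP, was called higher in AMPK-KO than in WT (0.64 ± 0.14, adjusted p = 0.0457) and *Bag1* lower (-0.90 ± 0.20, adjusted p = 0.0481). Of 3 heat shock factors tested, edgeR called none between genotypes or days, DESeq2 called 1 lower at d8, and 2 had an unadjusted p under 0.05 at d8. DESeq2 called 1073 of its 14871 genes lower between the genotypes at d8. The muscle clients and partners of these chaperones, 16 genes that include the myosin heavy chains and desmin, had 8 called higher and 1 lower from d0 to d8 in WT, and 7 higher and 1 lower in AMPK-KO, with a median of 4.47 and 5.97, beside the 5.78% and 4.81% of all genes called higher. With the replicate block 11 were called higher and 2 lower in WT, beside 7.92% and 8.55% of all genes, and DESeq2 called 12 higher in WT and 11 in AMPK-KO. Of all its genes, DESeq2 called 9.29% and 9.24% higher. Between the genotypes their median was -2.46 at d0 and -0.67 at d8, with none called by edgeR (3 and 4 at an unadjusted p under 0.05), 2 and 2 called lower with the replicate block and 3 and 2 by DESeq2. A single gene of the other 3 small heat shock proteins, *Hspb9*, was abundant enough to test and was not called.

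The third question was whether the TET2-S97E change on the AMPK-null background altered these genes at d0. Libraries of 1 clone are not independent samples of a genotype, so counts were summed per clone and 2 clones were compared with 2. No gene of 15126 was called (0%), 1575 had an unadjusted p under 0.05, and DESeq2 called 373 higher and 213 lower. Of the 10 genes, 9 were tested, since *Hspb3* had at most 3 counts in any library. The median log2 fold change was 0.79 over the 9 and -0.01 over all genes tested. The share of counts from mitochondrial genes was 1.14% and 1.00% in TET2-WT clone 1, 1.38% and 2.14% in TET2-WT clone 2, 2.29% and 2.12% in TET2-S97E clone 1 and 2.03% and 2.09% in TET2-S97E clone 2, and its part in the values of the 9 genes was not tested.

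*Unc45b* stood at 2.81 and 2.46 CPM in the libraries of TET2-WT clone 1, 1.05 and 5.00 in TET2-WT clone 2, 101 and 58.5 in TET2-S97E clone 1 and 21.4 and 5.64 in TET2-S97E clone 2. All 4 TET2-S97E libraries were above all 4 TET2-WT libraries, as they were for *Smyd1*, *Cryab* and *Hspb2*, 4 of the 9 genes beside 7.05% of all genes tested, but TET2-S97E clone 2 replicate 2 was close to TET2-WT clone 2 replicate 2. The log2 fold change between clone sums was 3.89 ± 0.91 (adjusted p = 0.307). *Smyd1* stood at 5.08 and 5.30 CPM in TET2-WT clone 1, 1.83 and 6.81 in TET2-WT clone 2, 79.6 and 93.0 in TET2-S97E clone 1 and 20.5 and 7.23 in TET2-S97E clone 2 (3.34 ± 0.91, adjusted p = 0.347). As for *Unc45b*, TET2-S97E clone 1 was far above the rest and TET2-S97E clone 2 replicate 2 was close to TET2-WT clone 2 replicate 2.

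*Cryab* stood at 90.6 and 123 CPM in TET2-WT clone 1, 76.9 and 77.0 in TET2-WT clone 2, 288 and 164 in TET2-S97E clone 1 and 194 and 144 in TET2-S97E clone 2, without overlap (0.99 ± 0.27, adjusted p = 0.347). *Hspb7* stood at 0.181 and 0.132 CPM in TET2-WT clone 1, 0.229 and 2.48 in TET2-WT clone 2, 19.4 and 5.41 in TET2-S97E clone 1 and 3.79 and 0.489 in TET2-S97E clone 2, with overlap (2.94 ± 1.30, adjusted p = 0.533). *Hspb1* stood at 142 and 192 CPM in TET2-WT clone 1, 143 and 174 in TET2-WT clone 2, 356 and 438 in TET2-S97E clone 1 and 152 and 192 in TET2-S97E clone 2, and *Hspb8* at 48.5 and 54.5 CPM in TET2-WT clone 1, 37.6 and 41.6 in TET2-WT clone 2, 120.2 and 74.3 in TET2-S97E clone 1 and 61.6 and 48.7 in TET2-S97E clone 2. In both genes TET2-S97E clone 1 was above every other clone. The log2 fold changes of *Hspb1* (0.79 ± 0.42), *Hspb8* (0.65 ± 0.32), *Hspb2* (0.55 ± 0.29), *Hspb6* (-0.14 ± 0.22) and *Hsp90aa1* (-0.09 ± 0.29) had adjusted p between 0.577 and 0.959.

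The calls depended on the unit of replication, the test and the clones included. With all 8 libraries as separate samples, *Unc45b*, *Smyd1* and *Cryab* were called higher (adjusted p = 0.0224, 0.0293 and 0.0263), 3 of 9 where 3.71% of all genes were called higher. DESeq2 on the clone sums called *Unc45b* alone of the 9 (adjusted p = 0.0295), beside 2.38% of its genes called higher. Without TET2-S97E clone 2, *Unc45b* and *Smyd1* were called higher by edgeR with log2 fold changes of 4.68 and 4.15, where 0.865% of all genes were, and without TET2-S97E clone 1 these were 2.00 and 1.32 and neither was called.

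Myotube markers differed among the same libraries. Their summed level was 16.5 and 17.9 CPM in TET2-WT clone 1, 36.2 and 289 CPM in TET2-WT clone 2, 5028 and 1839.8 CPM in TET2-S97E clone 1 and 1739 and 379.9 CPM in TET2-S97E clone 2, and of the 10 markers tested all had a positive log2 fold change with a median of 4.31, none called by edgeR, 6 called higher by DESeq2 and 9 with an unadjusted p under 0.05, beside 10.4% of all genes. *Acta1* was the most abundant marker in every TET2-S97E library, *Myh8* had 0 counts in both TET2-S97E clone 1 libraries, and *Actn2* had 0 counts in 3 of the 4 TET2-WT libraries. Of the 6 smooth muscle markers, led by *Acta2*, the summed level was 433 and 520.3 CPM in TET2-WT clone 1, 774 and 637 CPM in TET2-WT clone 2, 2027 and 1100 CPM in TET2-S97E clone 1 and 2135 and 2164 CPM in TET2-S97E clone 2, so that all 4 TET2-S97E libraries were above all 4 TET2-WT libraries. The 4 tested had positive log2 fold changes with a median of 1.30, none called by edgeR, 1 called higher by DESeq2 and 2 with an unadjusted p under 0.05. The part of the markers of either kind in the chaperone values was not tested.

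**Figure D4:**
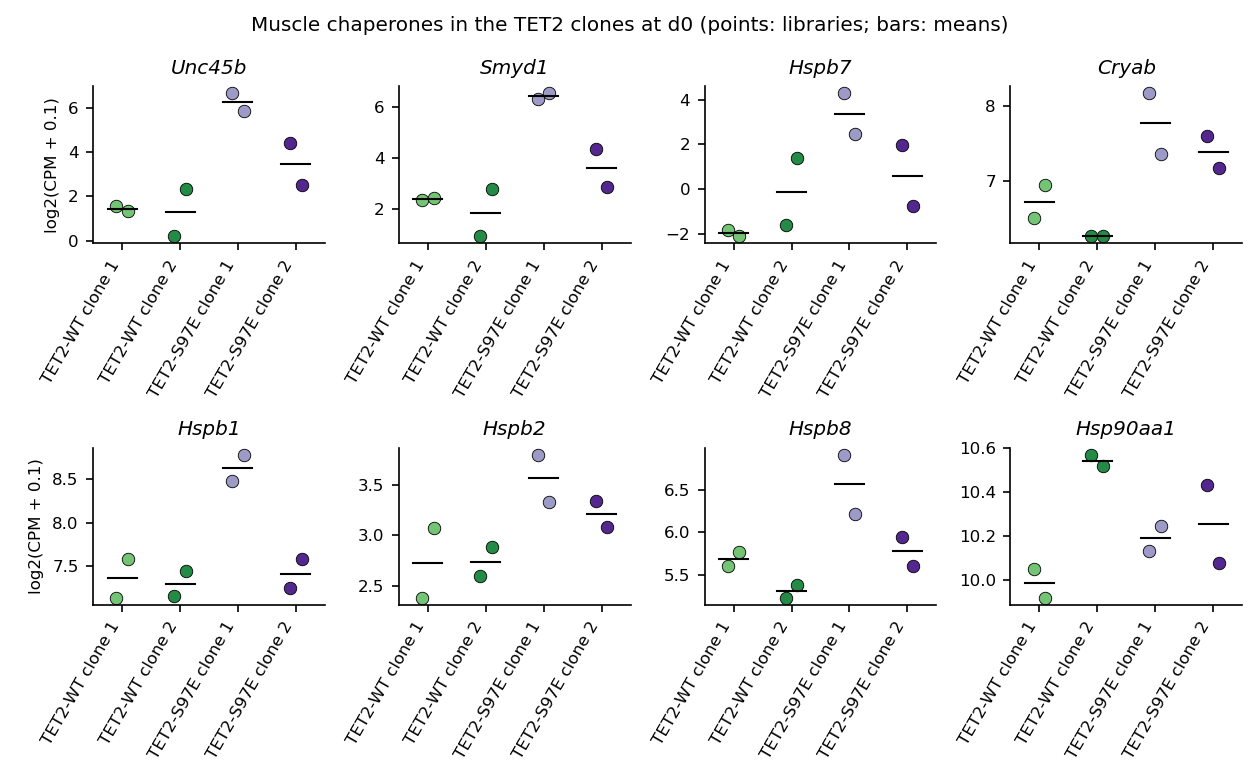
Level of 8 of the genes in the 8 libraries of the TET2 table, as log2(CPM + 0.1) on the y axis, with 1 point per library, a bar at the mean of the plotted values and a separate y range for each gene. *Unc45b* and *Smyd1* are highest in TET2-S97E clone 1, and TET2-S97E clone 2 lies between it and the TET2-WT clones.

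Clones of the same genotype also differed. Between the TET2-S97E clones, *Hspb1* was lower in clone 2, with 356 and 438 CPM in clone 1 and 152 and 192 CPM in clone 2 (-1.21 ± 0.22, adjusted p = 0.0125), and so was *Smyd1* (-2.65 ± 0.56, adjusted p = 0.0255). These were 2 of 9 genes tested, against 2.82% of all 14459 genes called lower and 3.35% called higher. With the replicate number as a block 4 of the 9 were called lower, where 5.1% of all genes were, and DESeq2 called 3, beside 4.69% of its genes. *Unc45b* (-2.58 ± 0.68, adjusted p = 0.0568) and *Hspb8* (-0.82 ± 0.23, adjusted p = 0.0750) were lower in both clone 2 libraries and were not called, and with *Hspb7* they make 5 of the 9 genes in which clone 2 lay below clone 1 without overlap, beside 21.3% of all genes tested. *Hspb8* stood at 120.2 and 74.3 CPM in clone 1 and 61.6 and 48.7 CPM in clone 2.

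The call of *Hspb1* was lost without TET2-S97E clone 1 replicate 2 (adjusted p = 0.0615) or TET2-S97E clone 2 replicate 1 (0.0521). That of *Smyd1* was lost without TET2-WT clone 1 replicate 1 or 2 (0.0779 and 0.0812), TET2-S97E clone 1 replicate 2 (0.0643) or TET2-S97E clone 2 replicate 2 (0.0584). The log2 fold change of *Smyd1* was -3.62 without TET2-S97E clone 2 replicate 1 and -2.07 without replicate 2. It was -2.65 without either TET2-WT clone 1 library. Of the lists of chaperones and their partners, the chaperonins had 1 gene called lower in clone 2, *Hspe1* (-0.75 ± 0.17, adjusted p = 0.0304), and the heat shock factors 1, *Hsf1*, the main one (-0.69 ± 0.17, adjusted p = 0.0474). The muscle clients and partners had 3 of 12 tested called lower, *Des*, the desmin gene (-1.59 ± 0.29, adjusted p = 0.0140), *Myh3*, the embryonic myosin heavy chain (-2.59 ± 0.56, adjusted p = 0.0293), and *Trim63*, the ubiquitin ligase MuRF1 (-2.51 ± 0.63, adjusted p = 0.0482). DESeq2 and the replicate block each called 4 lower and 1 higher. Of 7 myoblast markers, 4 were called lower and 1 higher in clone 2, with *Myod1* at -2.36 ± 0.23 (adjusted p = 0.00117), and of 10 myotube markers tested 2 were called lower. Between the TET2-WT clones none of the 9 was called by edgeR or DESeq2 where edgeR called 0.858% of all genes, and 2 had an unadjusted p under 0.05, as had 20.5% of all genes. The values ran up to 3.15 ± 1.35 for *Hspb7* (adjusted p = 0.236), which had 4 and 5 counts in clone 1 and 5 and 70 in clone 2. *Hsp90aa1* had the lowest adjusted p of the 9 (0.55 ± 0.17, adjusted p = 0.147), while *Unc45b* (0.24 ± 0.73) and *Smyd1* (-0.24 ± 0.57) overlapped between the clones.

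How the genes varied together is given as a description, since the points share groups, days and clones. On log2(CPM + 0.5) over the 8 libraries of the WT and AMPK-KO table, the highest Pearson correlations among the 10 were between *Unc45b* and *Smyd1* (0.974) and between *Hspb7* and *Unc45b* (0.973), and the lowest was between *Hspb6* and *Hspb8* (-0.712). Over the 8 TET2 libraries, all at d0, *Unc45b* and *Smyd1* again had the highest value (0.985). With the summed myotube markers, *Unc45b* had 0.974 in the first table and 0.915 in the second, *Smyd1* 0.975 and 0.856, *Hspb8* 0.743 and 0.722, *Hspb1* 0.443 and 0.664, and *Hsp90aa1* -0.499 and 0.202.

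**Figure D5:**
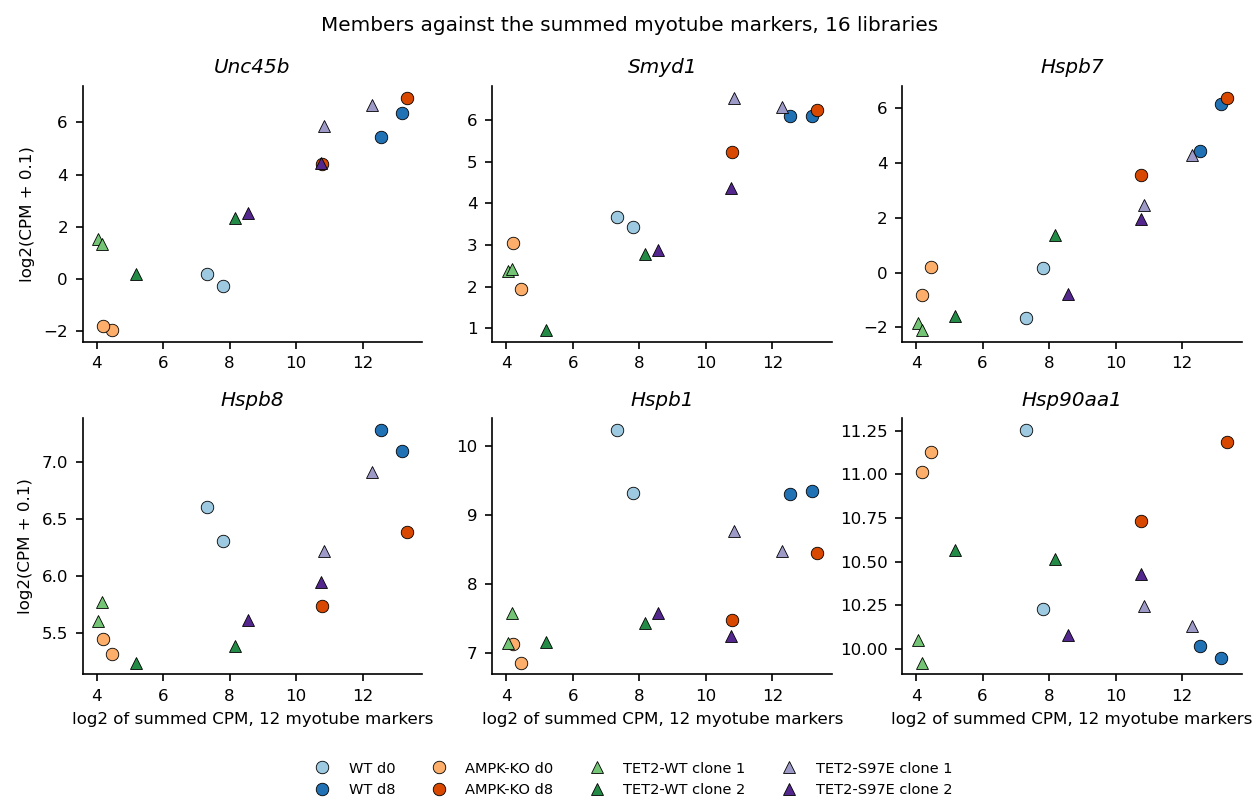
Level of 6 of the genes, as log2(CPM + 0.1) on the y axis, against the log2 of the summed CPM of 12 myotube markers on the x axis in 16 libraries, with circles for the WT and AMPK-KO table and triangles for the TET2 table. The tables were normalized separately, so heights are compared within a table. In both tables the libraries highest in *Unc45b*, *Smyd1* and *Hspb7* lie to the right, and the WT circles of *Hspb8* and *Hspb1* lie above the AMPK-KO circles of the same day.

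The 3 genes outside the 10 with the highest correlation to each over the 8 libraries of the first table were, for *Unc45b*, *Mb* (0.998), *Tnnt3* (0.996) and *Inpp4b* (0.996), of which *Mb* encodes myoglobin and *Tnnt3* fast skeletal troponin T. For *Smyd1* they were *Srl* (0.994), *Map1lc3a* (0.992) and *Amacr* (0.989), with *Srl* encoding sarcalumenin of the sarcoplasmic reticulum. For *Hspb3* they were *2310020H05Rik* (0.999), *Mybpc2* (0.995) and *Camk2b* (0.993), with *Mybpc2* encoding fast myosin-binding protein C. For *Hspb7* they were *Tmem38b* (0.997), *Ensa* (0.994) and *Lrrc2* (0.991), and for *Hspb2* *Nfe2l1* (0.997), *Mapre3* (0.997) and *Rnf11* (0.993).

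Of the other genes, the closest were *Card10* (0.987), *Zfp704* (0.985) and *Anxa6* (0.982) for *Hspb1* and *Tspan12* (0.989), *Atg2a* (0.988) and *Baiap2l1* (0.979) for *Hspb8*, and for *Hsp90aa1* *Traf3ip2* (0.993), *Rab3ip* (0.981) and *Gm12346* (0.977). *Cryab* had *Clic5* (0.981), *Ubr3* (0.977) and *Acyp2* (0.977), and *Hspb6* *Pwwp2a* (0.953), *Kitl* (0.949) and *Med17* (0.945). With 8 libraries in 4 groups, such values are high for many genes.

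Some counts share exon sequence with other annotated genes, and whether the counting used strand is not given in the sources used here. *Cryab* (chromosome 9, 50751325 to 50756636, plus strand) and *Hspb2* (chromosome 9, 50751078 to 50752354, minus strand) overlap head to head on GRCm38, with 252 exon bases in common, so part of the counts of *Hspb2* and *Cryab* may belong to either gene. *Hspb6* shares 122 exon bases with *Proser3*, 77 with *Gm38670* and 3 with *Lin37*, and *Unc45b* shares 255 with *Unc45bos* and 151 with *Slfn5os*. *Hsp90aa1* has a close paralog, *Hsp90ab1*, to which reads may have been split.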

How the data were processed

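Per the labels and the submitters' processing notes, reads were trimmed with Trim Galore 0.4.5, aligned with STAR 2.5.3a and counted with featureCounts 1.5.3 on GRCm38, and the deposited values are whole-number read counts for each gene, with no scaling by the authors. Here the 10 genes were found through GENCODE annotation. The genes and the lists were chosen with earlier results of these data known. CPM used TMM factors within each table, and TPM used exon lengths. Tests were edgeR 4.0.16 quasi-likelihood fits over all genes passing filterByExpr, with Benjamini-Hochberg adjustment and a threshold of 0.05: 4 group means over the 8 WT and AMPK-KO libraries, 2 clone sums against 2 for TET2-S97E, and 4 clone means over the 8 TET2 libraries. DESeq2 1.42.0, other size factors, no filter, single days, a replicate block and left-out libraries were alternatives. The procedures were tested on simulated data.

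In the WT and AMPK-KO table, same-numbered libraries deviated together in every pair of groups (correlations from 0.130 to 0.369). The labels do not say that the numbers pair samples. The main fits held no block, and the replicate block was an alternative. No 2 replicates agreed within sampling noise. Named were the 10 genes, the edited genes, at most 3 genes of a list in a comparison (those with the lowest adjusted p) and the 3 genes most like each chaperone by Pearson's r.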

Additional observations from a re-analysis of the deposited data

How the results depend on the processing

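With TMM and edgeR the genes called in all were 505 for AMPK-KO against WT at d0, 766 for the genotypes at d8, 1771 for d8 against d0 in WT, 1398 for d8 against d0 in AMPK-KO, 0 for the interaction, 0 for TET2-S97E against TET2-WT, 124 for the TET2-WT clones and 892 for the TET2-S97E clones. DESeq2 size factors in edgeR kept every count of called genes and of the 10 chaperones within 1.5 times of these. The DESeq2 test called 1325 genes for the genotypes at d0, 1569 genes for the genotypes at d8, 2394 genes for d8 against d0 in AMPK-KO, 54 genes for the interaction, 586 genes for TET2-S97E against TET2-WT, 895 genes for the TET2-WT clones and 1355 genes for the TET2-S97E clones, and of the 10 chaperones 2 lower for the genotypes at d0, 2 higher for the genotypes at d8, 2 lower for the genotypes at d8 and 1 higher for TET2-S97E against TET2-WT. Without the filter on low counts edgeR called 2026 genes for the genotypes at d0, 2503 genes for the genotypes at d8, 3293 genes for d8 against d0 in WT, 3039 genes for d8 against d0 in AMPK-KO, 449 genes for the interaction, 113 genes for TET2-S97E against TET2-WT, 1627 genes for the TET2-WT clones and 1680 genes for the TET2-S97E clones, and of the 10 chaperones 5 lower for the genotypes at d0, 2 higher for the genotypes at d8, 3 lower for the genotypes at d8, 2 lower for d8 against d0 in WT, 8 higher for d8 against d0 in AMPK-KO, 2 higher for the interaction, 1 higher for the TET2-WT clones and 5 lower for the TET2-S97E clones. With only the 4 libraries of a day edgeR called 335 genes for the genotypes at d0, and of the 10 chaperones 1 higher for the genotypes at d8 (*Hspb6*) and 0 lower for the genotypes at d8 (*Hspb8* being lost). With the replicate block edgeR called 677 genes for the TET2-WT clones and 1540 genes for the TET2-S97E clones, and of the 10 chaperones 2 lower for the genotypes at d0, 2 lower for the genotypes at d8 and 4 lower for the TET2-S97E clones. In the WT and AMPK-KO table the block reversed the sign of *Hspb7* (-0.10) and *Unc45b* (-0.14) between the genotypes at d8. It also reversed that of *Hspb6* between the days in AMPK-KO (0.0395), and none of these was called. It changed no call among the 10 chaperones in that table other than those of *Hspb8* at d0 and *Hspb1* at d8. In the TET2 table, deviations of same-numbered libraries had correlations from -0.0544 to 0.540, and the labels do not pair those samples either. The block called *Unc45b* and *Hspb8* lower between the TET2-S97E clones (adjusted p = 0.0370 and 0.0461), beside *Hspb1* and *Smyd1*. With 8 TET2 libraries as separate samples edgeR called 938 genes and 3 of the chaperones, and with the replicate block added 858 genes and 3 of the chaperones. Leaving out each library in turn (and each clone for TET2-S97E against TET2-WT, a lone sample being assumed to vary like the other groups), the genes called ran from 17 to 613 for the genotypes at d0, 107 to 902 for the genotypes at d8, 0 to 2260 for d8 against d0 in WT, 0 to 1737 for d8 against d0 in AMPK-KO, 0 to 6 for the interaction, 0 to 184 for TET2-S97E against TET2-WT, 0 to 313 for the TET2-WT clones and 472 to 1014 for the TET2-S97E clones. The chaperones called then ran from 0 to 2 lower for the genotypes at d0, 0 to 1 higher for the genotypes at d8, 0 to 1 lower for the genotypes at d8, 0 to 7 higher for d8 against d0 in WT, 0 to 1 lower for d8 against d0 in WT, 0 to 6 higher for d8 against d0 in AMPK-KO, 0 to 2 higher for TET2-S97E against TET2-WT and 1 to 3 lower for the TET2-S97E clones. For the genotypes at d0 the log2 values that changed sign without 1 library were those of *Hspb2* (-0.84 to 0.0443), *Hspb6* (-0.38 to 0.62), *Hspb7* (-0.43 to 1.75) and *Hsp90aa1* (-0.19 to 0.85). For the genotypes at d8 the log2 values that changed sign without 1 library were those of *Cryab* (-1.03 to 0.0916), *Hspb7* (-1.99 to 1.15), *Unc45b* (-1.59 to 0.99) and *Smyd1* (-0.90 to 0.17). For d8 against d0 in WT the log2 value that changed sign without 1 library was that of *Hspb1* (-0.92 to 0.0264). For d8 against d0 in AMPK-KO the log2 values that changed sign without 1 library were those of *Hspb6* (-0.45 to 0.54) and *Hsp90aa1* (-0.36 to 0.12). For the interaction the log2 value of *Hspb8* changed sign without 1 library (-0.40 to 0.31). Those of *Hspb7* and *Hspb2*, -0.20 and -0.34 on all libraries, turned positive without AMPK-KO d8 replicate 1. In that fit the genes rose by 6.81 and 2.40 in AMPK-KO and by 6.16 and 2.34 in WT. Others of the 10 genes may have changed sign as well. For TET2-S97E against TET2-WT the log2 values that changed sign without 1 library were those of *Hspb6* (-0.33 to 0.0607) and *Hsp90aa1* (-0.31 to 0.22). For the TET2-WT clones the log2 values of *Unc45b* (-1.31 to 0.92) and *Smyd1* (-1.50 to 0.38) changed sign without 1 library. In CPM the order of the clones also turned for *Hspb1*, *Hspb2* and *Hspb6*. Clone 1 replicate 1 had 142 CPM of *Hspb1* against 143 and 174 in clone 2, and 5.12 CPM of *Hspb2* against 5.96 and 7.28. Clone 1 replicate 2 had 27.4 CPM of *Hspb6* against 25.6 and 26.5 in clone 2. For the TET2-S97E clones the log2 values that changed sign without 1 library were those of *Cryab* (-0.77 to 0.0458) and *Hsp90aa1* (-0.16 to 0.24). None of the values that changed sign was called by edgeR on all libraries. Sampling depth limits *Hspb3*, with 0 counts in the d0 libraries of the first table, and *Unc45b* in AMPK-KO d0; the cause of the other changes was not tested.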

Other observations

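Markers of other mesenchymal cells also differed between the samples. The summed level of 7 fibroblast markers, led by *Col3a1* (type III collagen), was 3694 and 2267 CPM in WT d0, 3073 and 4701 CPM in AMPK-KO d0, 8542 and 12679.8 CPM in WT d8 and 11274 and 8269.9 CPM in AMPK-KO d8. From d0 to d8 in WT, 4 of 6 tested were called higher, among them *Dcn* (decorin; log2 fold change 5.48 ± 0.62, adjusted p = 0.0143 by edgeR) and *Lum* (lumican; 5.69 ± 0.93, adjusted p = 0.0156), and in AMPK-KO 1 of 6, *Dcn* (4.93 ± 0.61, adjusted p = 0.0193). Of all genes, 5.78% were called higher in WT and 4.81% in AMPK-KO. At d8, *Col1a1* (type I collagen; -4.11 ± 0.69, adjusted p = 0.0223) and *Lum* (-3.98 ± 0.82, adjusted p = 0.0401) were called lower in AMPK-KO than in WT, beside 3.98% of all genes. Between the TET2-S97E clones *Dcn* (1.92 ± 0.27, adjusted p = 0.00402) and *Lum* (3.51 ± 0.56, adjusted p = 0.00771) were called higher in clone 2, where *Hspb1* and *Smyd1* were lower. In that comparison 3.35% of all genes were called higher. Between the TET2-WT clones 3 of 6 fibroblast markers were called higher in clone 2, beside 67 of all 14459 genes tested.

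The 6 smooth muscle markers, led by *Acta2* (smooth muscle actin), summed to 2424 and 861 CPM in WT d0, 2236 and 1024 CPM in AMPK-KO d0, 1969 and 1313 CPM in WT d8 and 2747 and 1925 CPM in AMPK-KO d8, and replicate 1 was higher than replicate 2 in each group. Of them, *Lmod1* was called higher in TET2-S97E clone 2 than in clone 1 (2.43 ± 0.51, adjusted p = 0.0255). The 6 adipocyte markers, led by *Pparg*, summed to between 8.26 and 38.1 CPM over the 16 libraries, and 1 of 2 tested, *Fabp4*, was called higher in TET2-S97E clone 2 than in clone 1 (4.83 ± 1.17, adjusted p = 0.0433 by edgeR). The 5 osteoblast markers, led by *Runx2*, summed to between 43.1 and 99.4 CPM. The part of these markers in the values of the 10 chaperones was not tested.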
